A study of Gallus gallus with 5 samples.

Results

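The chicken karyotype combines a few large chromosomes with many very small ones, the microchromosomes. As general background, microchromosomes are rich in genes, in G and C bases and in CpG islands, recombine often, and lie towards the centre of the nucleus. Accessible intervals on these chromosomes were described here as all unique intervals on sequences numbered 11 or more, merged across the 5 deposited lists wherever they shared at least 1 bp. This gave 25542 merged regions on 21 chromosomes (11 to 28, 30, 32 and 33), or 16.6% of the 154266 merged regions of the whole series. The comparison was the 118090 merged regions of chromosomes 1 to 10.

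The lists came from ATAC-seq, an assay that marks accessible chromatin by letting Tn5 transposase insert sequencing adapters into it. Retinas of chick embryos at embryonic day 5 received a pair of plasmids by electroporation, ThrbCRM1-GFP and CAG-Cherry, and were then kept as explants for 48 h. ThrbCRM1 is a regulatory element of Thrb, which encodes a thyroid hormone receptor, and is active in progenitor cells of cones and horizontal cells. ThrbCRM1-positive cells (Cherry+/GFP+, 3 libraries) were set against ThrbCRM1-negative cells (Cherry+/GFP-, 2 libraries), so that all sorted cells of both groups carried the CAG-Cherry plasmid, and cells without it were not sampled. Strain and sex of the embryos are not given in the labels, and nothing says whether the libraries came from separate cultures, so the spread between them may be partly technical. Positions are those of the deposited lists, for which the submitters' processing notes name galGal5. No genes were assigned, so the identity of the sorted cells was not checked against marker genes here.

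The lists held 86433, 72029 and 71596 unique intervals in positive replicates 1, 2 and 3, and 84207 and 104902 in negative replicates 1 and 2. They hold no read counts, so depth is unknown, and the absence of an interval means that it was not called, not that the chromatin was closed. With 5 libraries, the exact sign-flip permutation test between chromosome classes (two-sided, the classes swapped within each library) cannot give a p below 0.0625. The exact permutation test between the populations (two-sided, over the 10 ways of assigning 5 libraries to groups of 3 and 2) cannot go below 0.1. No comparison could therefore pass 0.05, and the text gives sizes, spreads and the number of libraries showing each direction. Both tests speak of the spread between libraries, since chromosomes and intervals within a library are not replicates.

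Microchromosomes did not carry a uniformly higher density of open intervals. Per Mb spanned (from the first to the last listed base of each chromosome), they held 92.0, 96.0 and 80.8 intervals in positive replicates 1, 2 and 3, and 80.2 and 107 in negative replicates 1 and 2. On chromosomes 1 to 10 the same libraries held 87.6, 66.0 and 69.5 intervals per Mb in positive cells and 87.7 and 103 in negative cells. The density was thus higher on microchromosomes in 4 of 5 libraries and lower in negative replicate 1. The mean difference was 8.42 ± 13.8 intervals per Mb (SD, n = 5; exact sign-flip permutation test, p = 0.25, and 0.25 after Benjamini-Hochberg adjustment over the 5 comparisons between classes). Positive replicate 2 contributed most of it, with a gap of 30.0 intervals per Mb, and without that library the mean difference was 3.03. With each list shortened to its strongest 70000 intervals the difference was 13.1 intervals per Mb (p = 0.0625, exact sign-flip permutation test), with the same sign in 5 of 5 libraries. Within the naming series of the peak names it was -1.55 in the first series (replicate 1 of each population) and 15.1 in the second (the other 3 libraries).

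Merging turned the order round. The merged regions of microchromosomes numbered 145 per Mb, against 157 per Mb on chromosomes 1 to 10, and they covered 7.41% of the spanned length, against 6.86%. The median distance from one merged region to the next was 3811 bp on microchromosomes and 3654 bp on chromosomes 1 to 10. In windows of 100 kb, the median was 14 merged regions on microchromosomes and 15 on chromosomes 1 to 10. Windows with no region made up 2.27% of the 1766 windows on microchromosomes and 0.795% of the 7543 windows on chromosomes 1 to 10.

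Single microchromosomes differed more in density than the large chromosomes did. Among the 18 with at least 100 merged regions, chromosome 26 was the densest, with 184 merged regions per Mb over 5.31 Mb, followed by chromosome 23 with 177 and chromosome 24 with 175. Chromosome 22 was the sparsest of these, with 103 merged regions per Mb over 4.72 Mb. Chromosomes 1 to 10 lay between 146 and 170 merged regions per Mb, so that 3 of the 18 microchromosomes were above this range and 9 below it. This position depended on merging. By intervals per Mb averaged over the libraries, 9 of the 18 lay above the range of chromosomes 1 to 10 (74.6 to 90.7) and 1 below it. The order of chromosomes 26 and 22 was the same in the libraries as after merging. Chromosome 26 held 117, 137 and 110 intervals per Mb in positive replicates 1, 2 and 3 and 102 and 138 in negative replicates 1 and 2. Chromosome 22 held 64.6, 77.1 and 57.0 in positive and 57.2 and 77.8 in negative replicates. The lowest library on chromosome 26 was above the highest library on chromosome 22.

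Between these extremes, chromosomes 13, 11, 12, 21 and 28 held 151 to 163 merged regions per Mb. Chromosomes 14, 15, 17, 18, 19, 20, 25, 27 and 33 held 123 to 146. Density did not follow chromosome size within the class (Spearman's rho of 0.10 with the logarithm of the span over 18 chromosomes, a description over chromosomes that share libraries). Chromosome 16, which carries the major histocompatibility complex and the nucleolar organizer of the chicken, had only 44 merged regions over 0.595 Mb, or 73.9 per Mb. It held 27, 38 and 28 intervals in positive and 21 and 37 in negative replicates. Chromosomes 30 and 32 spanned 0.0179 and 0.0716 Mb with 4 and 15 merged regions, too few for a comparison. Without the numbers above 28, the difference in density from chromosomes 1 to 10 was 8.32 intervals per Mb.

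**Figure D1:**
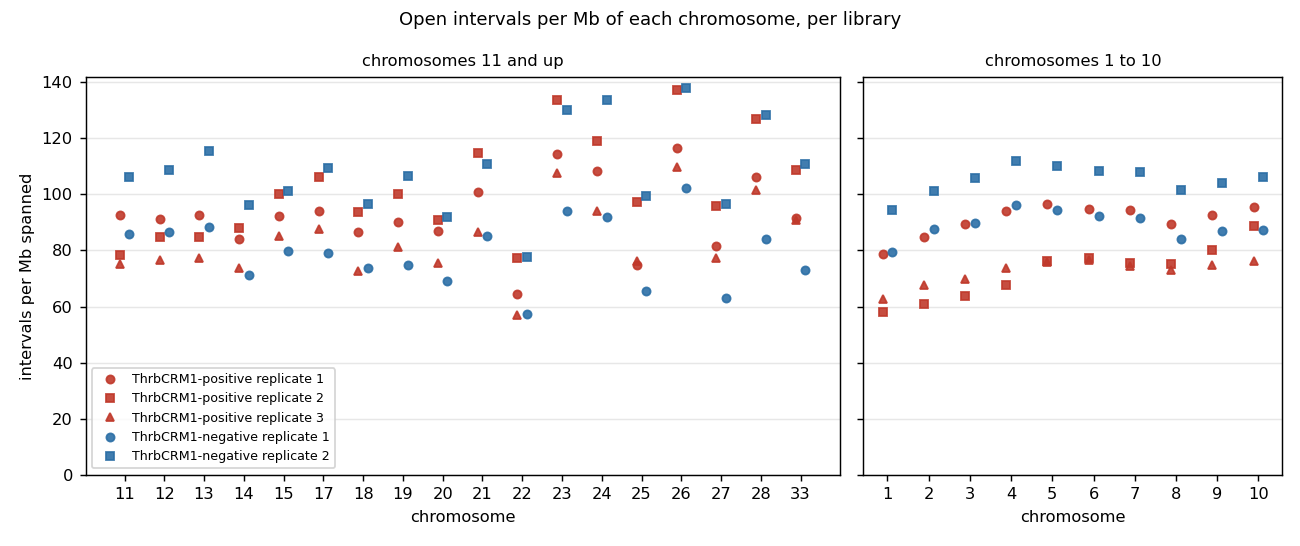
Unique intervals per Mb spanned (y axis) on each chromosome with at least 100 merged regions (x axis), 1 symbol per library, with microchromosomes on the left. Chromosomes 23, 24, 26 and 28 stand high and chromosome 22 low, while chromosomes 1 to 10 lie closer together.

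Open intervals on microchromosomes were wider. Their median width in bp was 381, 309 and 314 in positive replicates 1, 2 and 3, against 412 and 365 in negative replicates 1 and 2. On chromosomes 1 to 10 the positive replicates had medians of 330, 271 and 288 bp and the negative replicates of 349 and 302 bp. The gap was 48.2 ± 16.1 bp (SD, n = 5) and had the same sign in 5 of 5 libraries (exact sign-flip permutation test, p = 0.0625, the smallest possible; 0.104 adjusted over the 5 comparisons). It was 51, 38 and 26 bp in the positive libraries and 63 bp in each negative library, so that the groups did not overlap (difference of the means -24.7 bp, exact permutation test, p = 0.2). With the strongest 70000 intervals of each list that difference was -9.17 bp (exact permutation test, p = 0.3). Within bins of 10000 ranks the groups overlapped, with a difference of -5.60 bp (exact permutation test, p = 0.8). Much of the gap went with the ranking of intervals by −log10 p. When intervals were compared within bins of 10000 ranks, down to rank 70000, the mean gap was 9.79 bp and negative in positive replicate 1 (p = 0.188, exact sign-flip permutation test).

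Each interval on a microchromosome also held more summits, the points of strongest signal that the peak caller separates within 1 interval. Intervals on microchromosomes held 1.57, 1.60 and 1.49 summits on average in positive replicates and 1.51 and 1.65 in negative replicates. On chromosomes 1 to 10 the values were 1.44, 1.46 and 1.37 in positive and 1.37 and 1.44 in negative replicates. The gap of 0.148 ± 0.0350 summits (SD, n = 5) had the same sign in 5 of 5 libraries (exact sign-flip permutation test, p = 0.0625; adjusted 0.104). Within rank bins it was 0.0977 summits, again positive in 5 of 5 libraries. The share of intervals with 2 or more summits was higher on microchromosomes by 7.10 percentage points. The gap was 0.135, 0.135 and 0.118 summits in positive and 0.144 and 0.208 in negative libraries. These groups did not overlap (difference of the means -0.0464, exact permutation test, p = 0.1, the smallest possible; 0.2 adjusted over the 5 comparisons between populations). Without negative replicate 2 that difference was -0.0140. With the strongest 70000 intervals of each list it was -0.0273 (exact permutation test, p = 0.5). Within rank bins the gap was 0.0594, 0.0958 and 0.103 in positive and 0.0744 and 0.156 in negative libraries, which overlapped (exact permutation test, p = 0.5).

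Chromosome 27 had the most summits per interval among the 18 microchromosomes with at least 100 merged regions. Its intervals held 1.69, 1.81 and 1.57 summits in positive and 1.66 and 1.87 in negative replicates, and their median width was also the largest at 411 ± 39.3 bp (mean and SD over 5 libraries). Chromosome 24 had the fewest of the 18, with 1.52, 1.48 and 1.41 in positive and 1.39 and 1.53 in negative replicates. In 14 of the 18 microchromosomes the mean exceeded the highest value of chromosomes 1 to 10, which was 1.53 on chromosome 10. Just inside the class, chromosome 11 had 1.50 summits and a median width of 336 bp. Just outside it, chromosome 10 had 1.53 summits and 349 bp, so nothing changed abruptly at the class boundary. Over all 28 numbered chromosomes with at least 100 regions, summits per interval were fewer on longer chromosomes. Spearman's rho with the logarithm of the span was -0.84, given as a description. For the median width it was -0.82. Within chromosomes 1 to 10 alone both were -0.95, so the trend was not particular to microchromosomes.

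**Figure D2:**
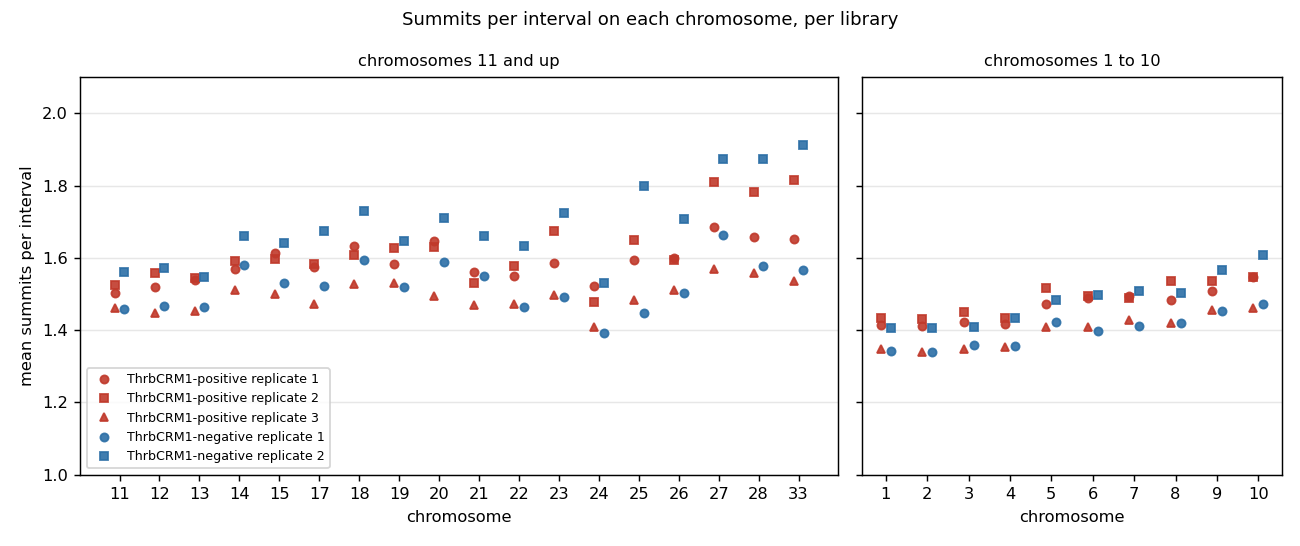
Mean number of summits per unique interval (y axis, starting at 1) by chromosome (x axis), 1 symbol per library, microchromosomes on the left. Of chromosomes with at least 100 merged regions, 27, 28 and 33 have the highest means, and among chromosomes 1 to 10 the lowest are on chromosomes 1 and 2 and the highest on chromosome 10.

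Very broad regions, of 2000 bp or more after merging, numbered 193 on microchromosomes (0.756% of their regions) and 634 on chromosomes 1 to 10 (0.537%). The widest merged region of the microchromosomes lay on chromosome 11 from 11248683 to 11252664 (3982 bp). It was split into 3, 2 and 2 intervals with 11, 9 and 13 summits in positive replicates, and into 2 and 1 intervals with 7 and 13 summits in negative replicates. The next widest of the microchromosomes lay on chromosome 12 from 7915442 to 7919305 (3864 bp) and on chromosome 18 from 10711377 to 10714973 (3597 bp). All of the 3 were in every list, with modest fold enrichments of 3.26 to 5.67.

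The authors' fold enrichment of the strongest summit of an interval over its local background was compared within each list only. Its median on microchromosomes was 3.16, 3.45 and 3.76 in positive replicates and 3.46 and 3.36 in negative replicates. On chromosomes 1 to 10 it was 2.88, 3.40 and 3.75 in positive and 3.042 and 3.0003 in negative replicates. The gap of 0.224 ± 0.183 (SD, n = 5) was positive in 5 of 5 libraries (exact sign-flip permutation test, p = 0.0625; adjusted 0.104). It was nearly 0 in positive replicates 2 and 3, at 0.0543 and 0.0115. The ratio of the 2 medians was 1.096, 1.016 and 1.003 in positive and 1.139 and 1.119 in negative libraries. These groups did not overlap (difference of the means -0.0906, exact permutation test, p = 0.2, and 0.2 adjusted). With the strongest 70000 intervals of each list that difference was -0.0179 (exact permutation test, p = 0.7). The sign of the gap turned when intervals of like rank were compared. Within bins of 10000 ranks, microchromosome intervals had a fold enrichment lower by 0.235 on average, and lower in 5 of 5 libraries (exact sign-flip permutation test, p = 0.0625). The ranking p and the fold enrichment derive from the same signal, so matching on rank is not independent of the value compared. Over the whole lists, the gap was 0.0291 with the mean in place of the median (exact sign-flip permutation test, p = 0.75). The gap of the medians was 0.135 at a q of 0.01 or less (exact sign-flip permutation test, p = 0.188). In the strongest 70000 intervals of each list it was 0.0822 (exact sign-flip permutation test, p = 0.25). Chromosome 25 had the highest median fold enrichment of the 18, at 3.82 ± 0.206, and chromosome 26 the lowest, at 3.27 ± 0.135 (mean and SD over 5 libraries). Within chromosomes 1 to 10, this median was also lower on longer chromosomes (Spearman's rho of -0.89 with the logarithm of the span). Over the 28 numbered chromosomes with at least 100 regions rho was -0.69.

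Microchromosomes took a larger share of the positive lists than of the negative lists. Of the intervals on numbered chromosomes, 19.7%, 25.4% and 21.4% lay on microchromosomes in positive replicates 1, 2 and 3, against 17.6% and 19.5% in negative replicates 1 and 2. All positive libraries were above both negative libraries, with positive replicate 1 only just above negative replicate 2. The means were 22.1 ± 2.91% (SD, n = 3) and 18.6 ± 1.34% (SD, n = 2), a difference of 3.59 percentage points (exact permutation test, p = 0.2; adjusted 0.2). The ratio of the density on microchromosomes to that on chromosomes 1 to 10 was 1.05, 1.46 and 1.16 in positive and 0.915 and 1.04 in negative replicates. Lists of unequal length entered these values. When each list was shortened to its strongest 70000 intervals, the difference in share was 2.00 percentage points and the groups overlapped (p = 0.6, exact permutation test). It also rested in part on positive replicate 2, without which it was 1.98 points. Within the first naming series the difference was 2.09 and within the second 3.86 points.

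The shares, again of the intervals on numbered chromosomes, differed with rank. In each of the 5 libraries, microchromosomes held more of ranks 10001 to 20000 than of the strongest 10000 intervals. They held 25.1%, 28.6% and 24.1% of ranks 10001 to 20000 in positive and 24.5% and 26.0% in negative replicates. Of the strongest 10000 they held 21.2%, 26.4% and 19.1% in positive and 17.1% and 20.9% in negative replicates. At ranks 60001 to 70000 the share was 15.5%, 19.7% and 16.2% in positive and 13.7% and 19.2% in negative replicates, lower than at ranks 10001 to 20000 in each library, though not in steady steps in positive replicates 2 and 3. Positive and negative libraries were separated at ranks 20001 to 50000, if barely, and overlapped in the bins above and below. At ranks 40001 to 50000, for example, the positive libraries had 21.5%, 23.6% and 22.7% and the negative libraries 18.6% and 21.3%. Because the lists differ in length, a bin of ranks is not the same part of each list.

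**Figure D3:**
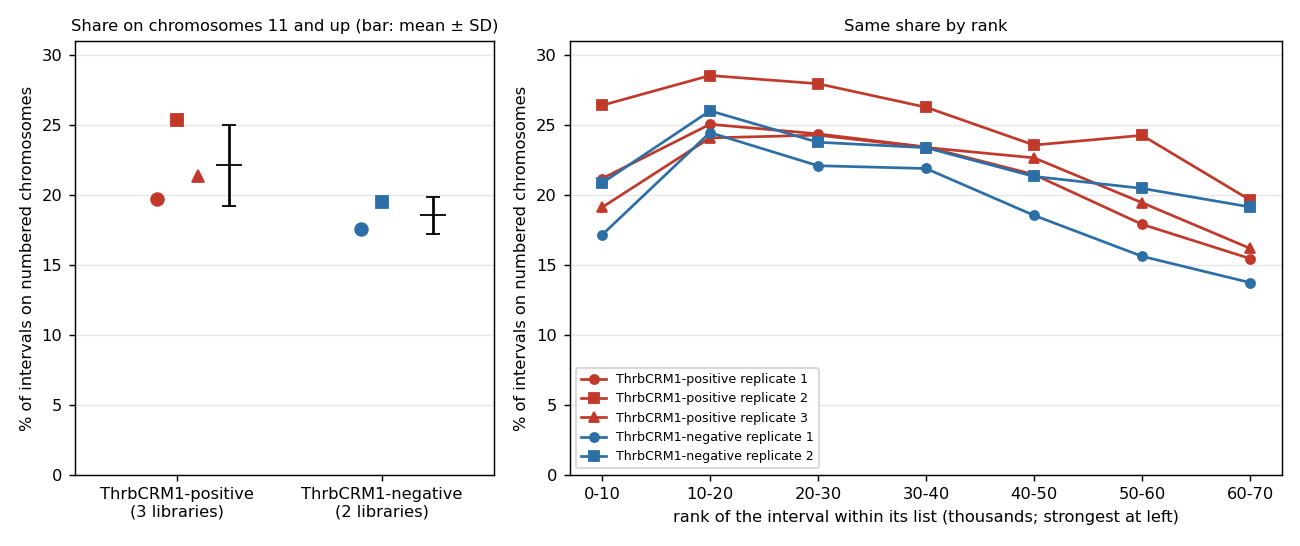
Left, the percentage of each library's intervals on numbered chromosomes that lie on chromosomes 11 and up, with the mean and SD of each population beside the symbols; right, the same percentage by rank within the list. The share is higher at ranks 10001 to 20000 than at ranks 1 to 10000 in each library and lowest at ranks 60001 to 70000, and positive replicate 2 lies highest throughout.

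Chromosome by chromosome, the share of a library's intervals did not overlap between the populations on 8 of the 21 microchromosomes (11, 14, 15, 17, 18, 20, 21 and 23), and was higher in positive cells on each of them. Over all 31 numbered chromosomes, 35.5% were separated with positive libraries higher and 12.9% with negative libraries higher. The 8 of 21 microchromosomes were close to that 35.5%. Chromosomes 8, 9 and 10 were also separated with positive libraries higher, so this was not particular to microchromosomes. Those with negative libraries higher were chromosomes 1 to 4, and no microchromosome was among them. The shares of a library add up to 100%, so these chromosomes are not independent of each other. Chromosome 15 took 1.43%, 1.91% and 1.63% of the intervals in positive replicates and 1.27% and 1.34% in negative replicates. For chromosome 23 the values were 0.803%, 1.16% and 0.934% in positive and 0.678% and 0.779% in negative replicates. Chromosome 27 had the largest ratio of mean shares, at 1.34, but its groups overlapped, with 0.553%, 0.802% and 0.649% in positive and 0.439% and 0.559% in negative replicates. Chromosome 13 had the smallest ratio of the class, at 1.03. Chromosomes 11, 12 and 13 (1.03 to 1.07) resembled chromosomes 8 to 10 (1.05 to 1.11) more than the smaller microchromosomes, which with at least 100 regions had ratios from 1.19 to 1.34.

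Regions on microchromosomes were shared by more of the libraries. Of their merged regions, 8603 (33.7%) were in all 5 lists, against 23.4% on chromosomes 1 to 10 and 25.2% over the whole series. With each list shortened to its strongest 70000 intervals, the contrast narrowed to 36.4% on microchromosomes against 28.7% on chromosomes 1 to 10. In the whole lists, regions in a single list made up 29.8% on microchromosomes and 41.4% on chromosomes 1 to 10. At least 1 list of each population held 54.7% of the regions on microchromosomes and 44.7% of those on chromosomes 1 to 10. The merged regions in all 5 lists had a median width of 808 bp on microchromosomes, and those in a single list 166 bp. On chromosomes 1 to 10 these widths were similar, at 783 and 173 bp. A merged region is the union of its intervals, so more lists can widen it by construction. Chromosome 33 had the highest share in all 5 lists among chromosomes with at least 100 regions, 40.7%, followed by chromosome 25 with 40.3%, and chromosome 11 the lowest of the class, 27.6%. In 15 of the 18 the share was above the highest value of chromosomes 1 to 10, which was 32.1% on chromosome 10. Chromosomes 11, 12 and 13 had 27.6%, 30.2% and 28.3%, below chromosome 10. Within chromosomes 1 to 10 too, the share fell with the logarithm of the span (Spearman's rho of -0.92). Over the 28 numbered chromosomes with at least 100 regions rho was -0.90, again a description.

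**Figure D4:**
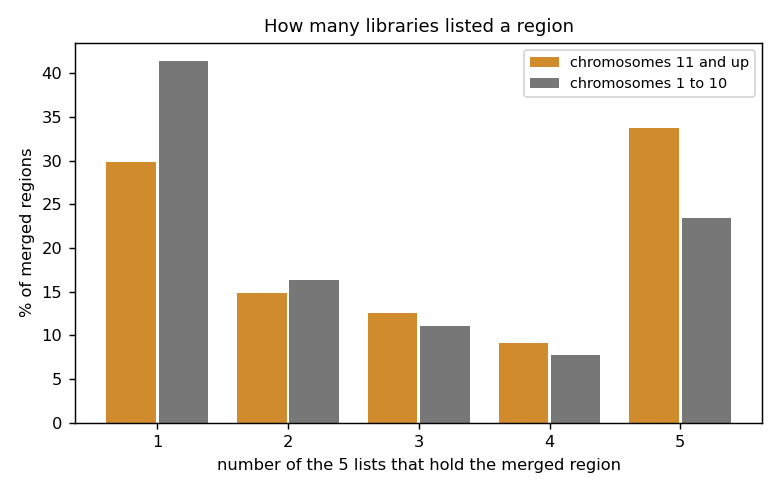
Percentage of merged regions (y axis) held by 1, 2, 3, 4 or all 5 of the lists (x axis), for chromosomes 11 and up beside chromosomes 1 to 10. Microchromosomes have a smaller share of regions in 1 list (29.8% against 41.4%) and a larger share in all 5 (33.7% against 23.4%).

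The strongest interval of each of the 5 lists lay on a microchromosome, on chromosome 14 from 4194605 to 4195788. Its −log10 p was 1836, 1915 and 1159 in positive replicates and 1494 and 2747 in negative replicates. This was 1.74 to 3.76 times the −log10 p of the next interval, which was mitochondrial in every list. Its fold enrichment, at 10.1 to 14.5, was not exceptional and ranked between 185 and 3238 within the lists. The edges were nearly the same in all libraries, within 2 bp at the start and 10 bp at the end, and it held 4 or 5 summits. The CAG promoter of the marker plasmid contains sequence of the chicken beta-actin gene. Whether plasmid DNA contributed reads to this interval was not tested.

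The next strongest regions of microchromosomes had ranks between 11 and 165 in the lists. The second by mean rank lay on chromosome 11 from 5077656 to 5078892, with ranks 71, 26 and 79 in positive and 165 and 84 in negative replicates. The third, on chromosome 13 from 7909903 to 7911591, ranked 103, 11 and 131 in positive and 102 and 101 in negative replicates. Among the strongest 100 intervals of a list, 3, 5 and 2 lay on microchromosomes in positive and 2 and 2 in negative replicates. Their share of the strongest 10000, given above over numbered chromosomes only, was larger.

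Population-specific regions were counted next. A region was positive-specific when all 3 positive lists and no negative list held it, and negative-specific when both negative lists and no positive list did. Microchromosomes held 1344 positive-specific regions, or 5.26% of their regions, against 3.40% in the whole series and 3.08% on chromosomes 1 to 10. They held 1481 negative-specific regions, or 5.80%, against 7.15% in the whole series and 7.65% on chromosomes 1 to 10. Set against the regions that met the presence condition of each definition, 12.2% of those in all positive lists were positive-specific on microchromosomes and 10.6% on chromosomes 1 to 10. For those in both negative lists, 11.9% were negative-specific on microchromosomes and 18.2% on chromosomes 1 to 10. There were thus 0.907 positive-specific regions for each negative-specific one on microchromosomes, and 0.403 on chromosomes 1 to 10. The 2 definitions need different numbers of libraries, so the ratio itself says nothing about the relative size of the specific sets. Its order between the chromosome classes was kept in all 11 alternatives in which it was computed for both classes, in which the ratio on microchromosomes was 1.64 to 3.42 times that on chromosomes 1 to 10.

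The counts depended on the libraries of both populations. On microchromosomes they were 2234 positive-specific and 2348 negative-specific regions when negative replicate 2 was left out, and 1524 and 4907 when negative replicate 1 was left out. Without positive replicate 1, 2 or 3, the positive-specific counts were 1736, 1523 and 1973, and the negative-specific counts 2028, 1822 and 1671. Leaving out a library removes a condition of the definition, so it can raise a count by construction.

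Within the class, the balance differed between chromosomes. Chromosomes 11, 12 and 13 had 0.559, 0.533 and 0.481 positive-specific regions for each negative-specific one, close to the 0.591 of chromosome 10. Chromosome 14 had 0.843, chromosome 22 0.852 and chromosome 24 0.934. Chromosomes 17 and 18 had 1.18 and 1.20, and chromosomes 19, 20, 21, 15, 26, 25, 28 and 23 ran from 1.25 to 1.70. Chromosome 27 had the highest ratio, 2.31, from 37 positive-specific and 16 negative-specific regions, and chromosome 33 had 8 of each. The 3 smallest sets, on chromosomes 16, 30 and 32, had none of either kind.

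Positive-specific regions took the largest share on chromosome 23, with 75 regions or 7.35% of its regions, and on chromosome 15, with 126 regions or 7.18%. Per Mb, chromosome 23 held 13.0 of them, against 4.21 to 6.97 on chromosomes 1 to 10. Chromosome 33 had the lowest share of the 18, 3.46%. Negative-specific regions took the largest share on chromosome 13 (216 regions, 7.78%) and the smallest on chromosome 27 (2.29%). Over the 18 chromosomes, the negative-specific share was higher on longer chromosomes (Spearman's rho of 0.78 with the logarithm of the span), and for the positive-specific share rho was 0.03. Within chromosomes 1 to 10 rho was 0.35 for the negative-specific share and -0.88 for the positive-specific share. Over all 28 chromosomes with at least 100 regions the values were 0.85 and -0.65. All are descriptions over chromosomes that share the same libraries.

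**Figure D5:**
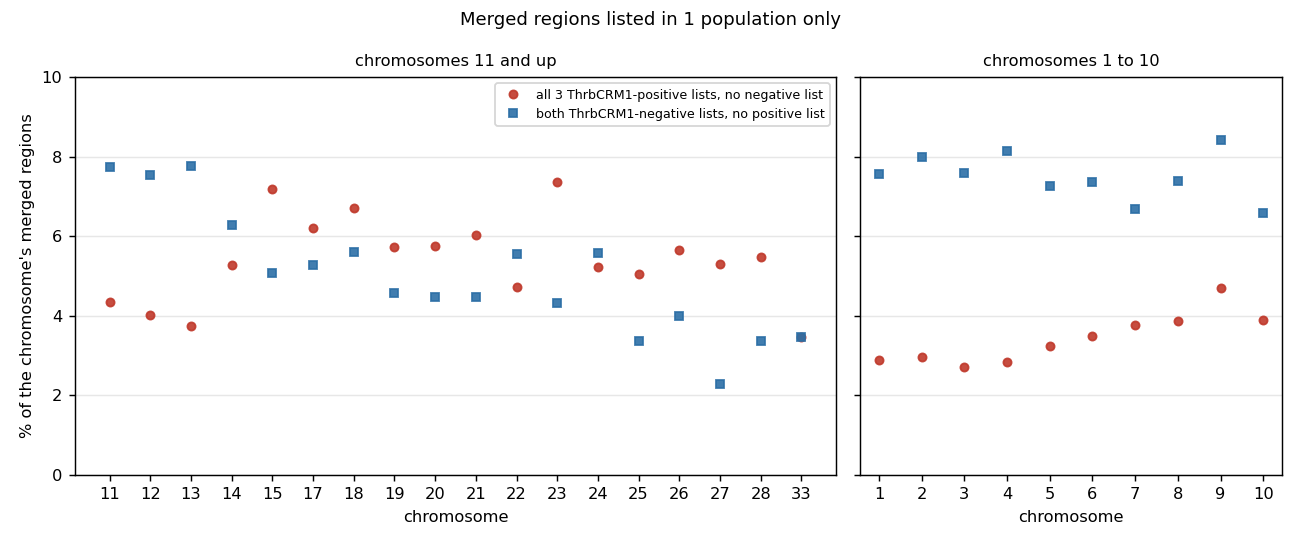
Percentage of each chromosome's merged regions (y axis) that were positive-specific (circles) or negative-specific (squares), by chromosome (x axis), microchromosomes on the left. The negative-specific share exceeds the positive-specific one on chromosomes 1 to 14, while on most of the smaller chromosomes the order is the other way round.

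A measure per library gave a similar picture for the negative libraries, but not for positive replicates 1 and 3. Of the intervals of positive replicates 1, 2 and 3 on microchromosomes, 21.2%, 23.3% and 17.8% had no overlapping interval in either negative list. On chromosomes 1 to 10 the values were 27.4%, 20.6% and 20.2%. Of the intervals of negative replicates 1 and 2 on microchromosomes, 16.1% and 25.6% had no overlapping interval in any positive list, against 30.4% and 34.5% on chromosomes 1 to 10. The share was lower on microchromosomes in 4 of 5 libraries, the exception being positive replicate 2. The mean gap was -5.81 ± 6.48 percentage points (SD, n = 5; exact sign-flip permutation test, p = 0.188, adjusted 0.234), and -3.23 points without negative replicate 2. The gap was -6.13, 2.79 and -2.40 points in positive libraries and -14.3 and -8.98 points in negative libraries, with no overlap (difference of the means 9.73 points). Each value was taken against the lists of the other population, 2 for positive and 3 for negative libraries. The values thus depend on the group labels, so a permutation of libraries between the groups does not apply and no p is given.

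Compared within bins of 10000 ranks, the gap was 0.262, 4.48 and -1.11 points in positive and -6.71 and -1.46 points in negative libraries (difference 5.30 points, without a p for the same reason). Its mean over the libraries shrank to -0.907 points (exact sign-flip permutation test, p = 0.625). The strongest 10000 intervals were almost all listed in both populations. On microchromosomes 0.101%, 0.248% and 0.114% of them were missing from the other population in positive libraries, and 0.125% and 0% in negative libraries. At ranks 60001 to 70000 the values were 40.9%, 47.0% and 39.6% in positive and 39.5% and 43.0% in negative libraries.

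By mean rank, the strongest 5 positive-specific regions of microchromosomes were on chromosomes 15, 13, 11, 15 and 12. The first, on chromosome 15 from 1240967 to 1241272 (306 bp), ranked 14691, 9405 and 8014 in positive replicates 1, 2 and 3. Its fold enrichment there was 6.54, 8.78 and 10.6. It had a single summit in each list. The second spanned 1159319 to 1160072 on chromosome 13 and ranked 9636, 10042 and 12810. The third spanned 3942239 to 3942666 on chromosome 11 and ranked 14942, 9979 and 9140. The fourth lay on chromosome 15 from 6787504 to 6788382 and the fifth on chromosome 12 from 13190623 to 13191568. No negative list held an interval at any of the 5. Most of the set ranked far lower, with medians of 40758, 33438.5 and 41109.5 in positive replicates 1, 2 and 3.

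Among negative-specific regions, the strongest 5 by mean rank were on chromosomes 12, 12, 18, 33 and 26. On chromosome 12 they spanned 14045325 to 14045688, with ranks 9989 and 13662 in negative replicates 1 and 2, and 9574548 to 9575072, with ranks 16937 and 15969. The third spanned 5240186 to 5240796 on chromosome 18, the fourth 195970 to 196318 on chromosome 33 and the fifth 3688658 to 3689216 on chromosome 26. Each had a single summit in both negative lists, with fold enrichments between 5.07 and 8.28 over the 5 regions. No positive list held an interval there. The median rank of the whole negative-specific set on microchromosomes was 54555 and 55969 in negative replicates 1 and 2. The lists differ in length, so a given rank is not the same relative position in each of them.

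Along microchromosomes, regions were sparser towards the ends. The outermost 10% of the span at either end of the 18 chromosomes held 127 merged regions per Mb, and the 10% on either side of the middle held 157 per Mb. On chromosomes 1 to 10 the same parts held 144 and 167 per Mb. The outermost parts held fewer regions than the innermost ones on 17 of the 18 microchromosomes and 9 of chromosomes 1 to 10, with median ratios of 0.784 and 0.854. Positive-specific regions made up 5.45% of the regions in the outermost parts of microchromosomes and 5.38% in the innermost ones. For negative-specific regions the shares were 4.44% and 5.84%. In the same parts of chromosomes 1 to 10, positive-specific regions made up 3.86% and 2.86%, and negative-specific regions 7.18% and 7.60%. The lists do not show which stretches of the assembly are gaps, so their part in this pattern was not tested.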

How the data were processed

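Intervals were called by the authors per library with MACS2, per the peak names in the files, after alignment with Bowtie2 to galGal5, per the submitters' processing notes. Versions, the handling of duplicates and any Tn5 shift are not given in the sources used here. The deposited columns hold start, end and summit position, a fold enrichment (a ratio to the library's local background), p and q values as −log10 (that of q at least 1.30 in each list, a q of 0.05) and a whole-number score, which was not used. These values were not normalized between libraries.

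Rows repeating an interval were reduced to unique intervals carrying their strongest summit's values, ranked by −log10 p, and merged across lists at 1 bp of overlap (Python 3.11.15, pandas 2.3.3, numpy 2.4.6), after a check on simulated lists. Starts are 1-based. No reads or counts were used, so depth is unknown. Named regions are the 3 in all 5 lists, the 5 positive-specific and the 5 negative-specific ones with the lowest mean rank, and the 3 widest. Chromosomes were ranked by a value only with at least 100 merged regions. Members, measures and the naming series (the 2 kinds of library names in the peak names) were chosen with earlier results of these data known. Alternatives were q of 0.01 or less, equal list lengths, chromosomes 11 to 28, chromosomes 1 to 5 as the comparison, 100-kb windows as the span, means, merging at 50% overlap, summit windows of 200 bp, each naming series, each library left out and the replicate numbers as a block. Comparisons within rank bins were added after seeing the data.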

Additional observations from a re-analysis of the deposited data

Results flagged for a closer look

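Outside the numbered chromosomes, the lists held signal that the comparisons above did not use. It comprised 10634 merged regions (6.89% of the series), of which 9362 lay on chromosome Z, 16 on W, 19 on the mitochondrial sequence and 1237 on 438 unplaced sequences. Groups of 3 and 2 libraries are too small for a check of single outlying libraries.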

How the results depend on the processing

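Of 162 values recomputed under the alternatives, 154 kept their direction or stayed within 1.5 times the count, 6 counts moved by more and 2 values reversed. The density difference reversed in the first naming series alone (-1.55 intervals per Mb), and the fold enrichment gap reversed within rank bins (-0.235); the cause was not tested. In the first naming series alone the counts were 5318 positive-specific and 3265 negative-specific regions, and in the second alone 5885 negative-specific ones, where fewer libraries make the definitions easier to meet. With 1 library left out at a time, positive-specific counts ran from 1523 to 2234, negative-specific counts from 1671 to 4907 and regions in all lists from 8787 to 9490. The class gaps then ran from 3.03 to 12.4 intervals per Mb, 44.5 to 53.8 bp, 0.133 to 0.156 summits, 0.175 to 0.277 in fold enrichment and -7.82 to -3.23 points of unlisted intervals. Equal list lengths lowered the difference in share from 3.59 to 2.00 points and the width gap from 48.2 to 35 bp. Within rank bins the width gap was 9.79 bp. Rank bins also shrank the gap in unlisted intervals, from -5.81 to -0.907 points. With the replicate block (replicates 1 and 2 of both populations), the share difference was 3.97 points, 2.09 in pair 1 and 5.86 in pair 2. The paired density ratio differed by 0.276, the width gap by -18.5 bp, the summit gap by -0.0407 and the fold ratio by -0.0730. Over microchromosome regions the deviations of same-numbered libraries correlated at 0.05, so the numbers were not taken to pair the libraries. With no read counts, depth could not be matched between libraries.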
